A study of Mus musculus with 12 samples.

Results

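The transcripts of 10 proteins that make or break down prostaglandins and leukotrienes were followed across 4 genotype labels of mouse macrophages. The genes are Pla2g4a, Ptgs1, Ptgs2, Ptges, Ptges3, Hpgd, Alox5, Alox5ap, Lta4h and Ltc4s, chosen by name for their roles in eicosanoid synthesis and breakdown. The choice was made with earlier results of these data known. All 10 were found among the 15555 genes of the deposited count table. The cells were bone-marrow-derived macrophages grown for 9 days in medium holding CSF-1 from L cells, with no further stimulus named in the labels. The 12 libraries comprised 3 each labelled DKO (Cbl-/- and Cbl-b-/- together), Cbl-/-, Cbl-b-/- and WT, the control. The Cbl and Cbl-b proteins attach ubiquitin to activated tyrosine kinases, the receptor for CSF-1 included, and the design asks what losing either or both changes in the transcriptome. The sources used here do not give the alleles, the strain or the age of the mice, and below DKO and Cbl-b-/- stand for the libraries so labelled, because the Cblb counts do not bear those labels out. Since nothing says that the 3 libraries of a label came from separate animals, a p-value reflects library-to-library spread alone, and that spread could be technical.

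Eicosanoids are lipid signals made from arachidonic acid, which a phospholipase frees from cell membranes. Cyclooxygenases turn it into the precursor from which prostaglandins are formed, and a lipoxygenase working with a helper protein turns it into the precursor of the leukotrienes. Macrophages are a major source of both families, which act on blood vessels, airways and other immune cells, and prostaglandins are later inactivated by a dehydrogenase.

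Levels below are CPM, each library's read counts brought to a common library size by TMM scaling, given per library or as the mean ± SD of 3 libraries. A gene was called changed when edgeR's quasi-likelihood test gave a Benjamini-Hochberg adjusted p under 0.05 over the 12671 genes tested, and all 10 genes passed the filter on low counts. The libraries had total counts of 21048103 to 43946503. Ptges, the lowest of the 10, was still backed by 57 to 210 reads per library, and Alox5ap, the highest, by 11754 to 23156.

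Some labels and libraries need a word first. Cbl averaged 37.6 ± 3.05 CPM in the libraries labelled DKO, 51.5 ± 2.34 in Cbl-/- and 139 ± 3.04 in those labelled Cbl-b-/-, against 140.2 ± 3.41 in WT (SD, n = 3 each). Cblb averaged 71.7 ± 3.23 in the libraries labelled DKO, 68.5 ± 0.690 in Cbl-/- and 52.8 ± 2.93 in those labelled Cbl-b-/-, against 59.4 ± 3.51 CPM in WT, so the Cblb transcript was not lower in DKO and only slightly lower in Cbl-b-/-. The counts are totals over each gene's exons, and the alleles' missing exons are not known here. All 10 macrophage markers were present, with summed levels of 17326 to 20551 CPM in libraries labelled DKO and 20460.0 to 22584 in WT, most of it Lyz2. Of these 10 markers 5 were called lower in DKO than in WT (C1qa -1.64, Mertk -1.21, C1qb -1.11, Adgre1 -0.37 and Csf1r -0.37 on the log2 scale) and 2 higher (Fcgr1 0.82 and Cd14 0.66). Markers of other cells moved with the DKO label: 5 of 5 monocyte markers were in the table and summed to 141 to 189 CPM in DKO, 82.5 to 93.0 in Cbl-/- and 77.4 to 86.6 in Cbl-b-/-, against 56.1 to 61.6 in WT. The 4 of 9 neutrophil markers in the table summed to 48.3 to 73.4 CPM in DKO against 2.28 to 3.16 in WT. The 3 of 9 mast cell and basophil markers in the table summed to 3.47 to 4.18 CPM in DKO against 0.786 to 0.999 in WT, and 6 of 7 stromal and endothelial markers to 12.97 to 16.6 against 3.49 to 5.68. Of the neutrophil list only S100a8, S100a9, Ltf and Cxcr2 were in the table, with Cxcr2 averaging 0.272 CPM in DKO, and of the mast cell list only Kit, Gata2 and Hdc. The table holds only genes with at least 1 count in the first WT library. A marker silent there is missing whatever its level in DKO, so a missing marker says nothing about DKO. Of 4 megakaryocyte markers 3 were in the table and summed to 29.1 to 33.6 CPM in DKO against 62.7 to 75.0 in WT, nearly all of it Pf4; Pf4 and Ppbp were called lower, and Itga2b, at 0.296 CPM in DKO against 0.0635 in WT, was not tested. The 4 of 5 dendritic cell markers in the table summed to 2.67 to 2.79 against 0.965 to 1.10, 1 of 4 eosinophil markers to 0.891 to 1.07 against 0.452 to 0.572, and the only lymphoid marker of 5 in the table stayed under 1 CPM. In Cbl-/- the macrophage markers summed to 17742 to 18715 CPM, below every WT library. There Lyz2 (-0.34), Adgre1 (-0.19) and Mertk (-0.42 on the log2 scale) were called lower than in WT, and C1qa (0.39) higher. Sums in Cbl-/- also lay above WT for neutrophil (3.17 to 4.33 CPM), mast cell and basophil (1.07 to 1.496) and dendritic cell markers (1.14 to 1.69). The stromal and endothelial, megakaryocyte, eosinophil and lymphoid sums in Cbl-/- overlapped WT. The part of these cells in the results on the libraries labelled DKO or Cbl-/- was not tested. The third DKO library also stood apart, with a chi-square per degree of freedom of 44.7 and 55.3 against its partners where other replicate pairs gave 3.93 to 12.3, and results that rest on it are given with and without it. The third Cbl-b-/- library, the least deep, did not stand apart on chi-square (10.5 and 8.52) but did in a principal component analysis of log2 CPM. On the third component it lay at -39.4 against 10.2 and 7.30 for its partners. There the third DKO library lay at -1.71 against -1.47 and -3.13. Among the 10 genes only the call on the Ltc4s departure below was lost without the third Cbl-b-/- library.

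Against WT, the libraries labelled DKO had less Hpgd, the dehydrogenase that begins prostaglandin inactivation, at 11.9 ± 2.73 CPM against 64.3 ± 1.32, and less Ltc4s, the leukotriene C4 synthase, at 5.82 ± 0.874 against 11.2 ± 0.487 (SD, n = 3 each). In these bulk libraries fewer cells of a type and less RNA per cell cannot be told apart. The DKO libraries also had more Alox5, more Ptges and, less firmly, more Ptgs2. The Cbl-/- libraries shared the direction for Hpgd, Ltc4s and Alox5 and had more Ptgs1, the constitutive cyclooxygenase. Of the 10 genes, 5 were called in DKO against WT, where 35.4% of all tested genes were called, with 3 higher (19.1% of all genes) and 2 lower (16.3%). In Cbl-/- against WT 4 of 10 were called, where 9.87% of all tested genes were called, with 2 higher (5.68% of all genes) and 2 lower (4.19%). None of the 10 was called by edgeR in the libraries labelled Cbl-b-/- against WT, where 0.489% of all genes were (0.395% higher and 0.0947% lower); 2 of the 10 had an unadjusted p under 0.05, and DESeq2 called 1 and limma voom 0.

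**Figure D1:**
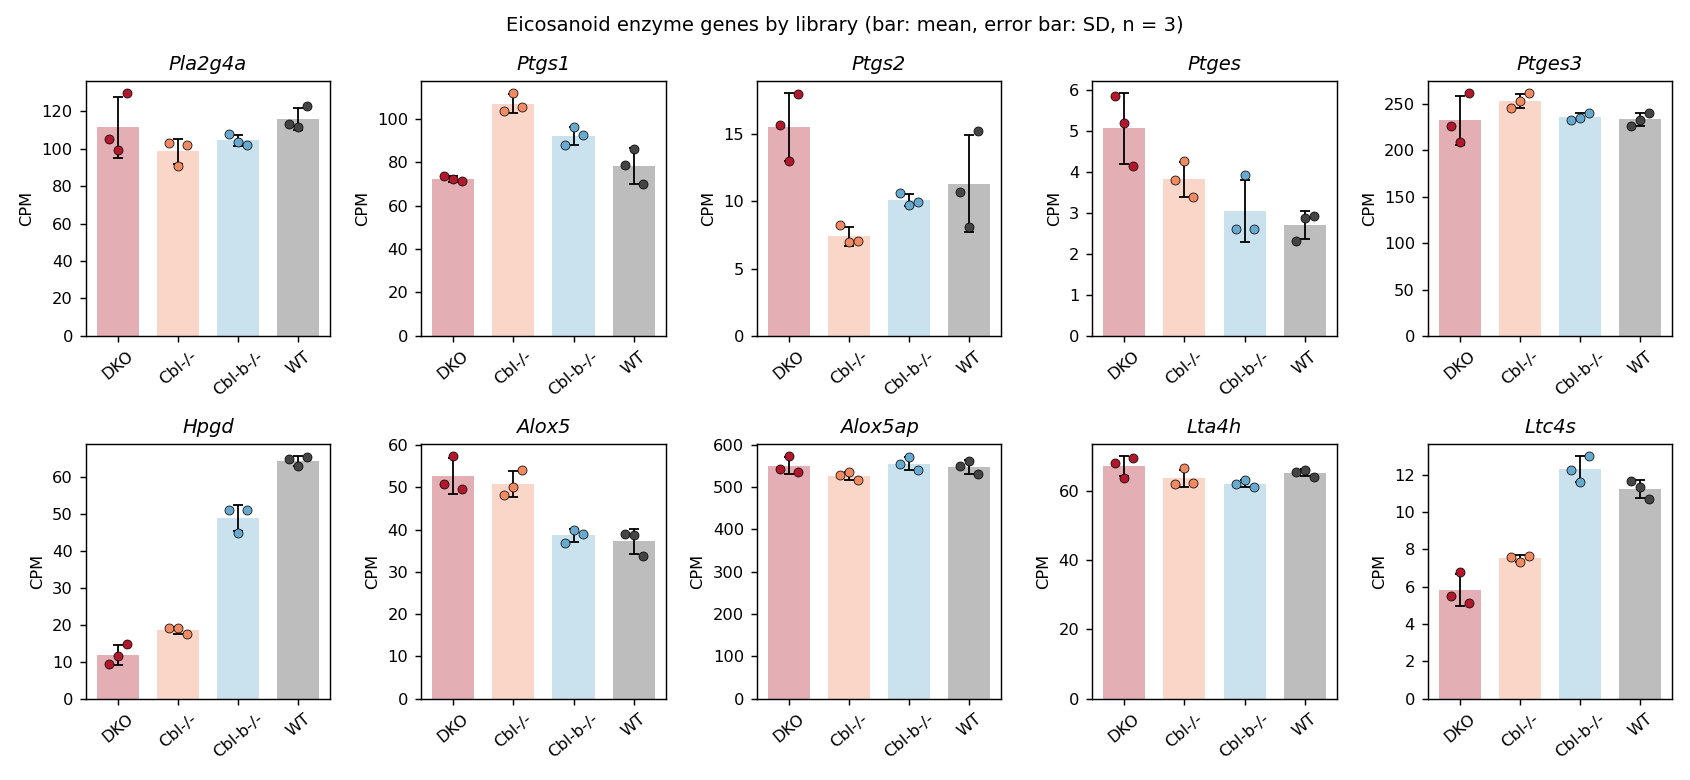
CPM of the 10 genes in each library (points), with the mean (bar) and SD (error bar) of 3 libraries for DKO, Cbl-/-, Cbl-b-/- and WT. Hpgd and Ltc4s are lowest in DKO, next lowest in Cbl-/-, and Alox5ap and Lta4h are nearly level across the 4 labels.

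The median log2 fold change of the 10 genes was 0.00 in DKO against WT, as it was over all tested genes, while the median absolute log2 fold change was 0.29 for the 10 genes and 0.20 for all genes. In Cbl-/- against WT the median absolute log2 fold change was 0.45 for the 10 genes and 0.12 for all genes, and in the libraries labelled Cbl-b-/- it was 0.14 and 0.07. The 3 WT libraries serve in each of these comparisons. Among all genes called in DKO against WT, 54.0% were higher under TMM scaling and 38.2% under total-count scaling. That share was 54.1% and 33.1% in DKO against Cbl-/-, 53.1% and 32.5% in DKO against Cbl-b-/-, and 53.6% and 29.3% for the departure from additivity described below. Under total counts Hpgd (log2 fold change -2.50) and Ltc4s (-1.02) were still called lower, and Alox5 (0.43) and Ptges (0.84) higher, in DKO than in WT, while Ptgs2 was not called (0.40).

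Promoter windows are printed for 4 members: Hpgd and Ltc4s, both called lower in DKO and in Cbl-/- than in WT, and Ptgs1 and Ptgs2, called in opposite directions between DKO and the single-knockout labels. RefSeq windows (GRCm38.p6, 250 bases before to 50 after the annotated start, 5′ to 3′ on the gene's strand) were at hand for 9 of the 10 genes. Capitals mark matches to 10 short patterns searched on both strands. For NF-kB these were GGNNTTTCC and GGGNNTTCC. For factors bound to the cAMP response element they were TGACGTCA and the shorter TGACG. For C/EBP, the pattern was TTNNGNAAT. Core promoters were searched for TATAAA. The E-box was given as CACGTG. Interferon-stimulated elements were given as TTTCNNTTT, STAT sites as TTCNNNGAA, and the core bound by PU.1 as GAGGAA. The windows are chr8:56294302-56294601 (plus strand) for Hpgd, chr11:50238483-50238782 (minus) for Ltc4s, chr2:36230176-36230475 (plus) for Ptgs1 and chr1:150099781-150100080 (plus) for Ptgs2.
Hpgd: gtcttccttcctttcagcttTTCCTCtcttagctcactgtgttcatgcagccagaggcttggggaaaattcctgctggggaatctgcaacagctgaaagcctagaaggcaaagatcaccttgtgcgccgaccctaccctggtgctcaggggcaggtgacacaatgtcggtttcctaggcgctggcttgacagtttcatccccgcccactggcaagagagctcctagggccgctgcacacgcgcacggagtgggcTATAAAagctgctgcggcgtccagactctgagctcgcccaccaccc
Ltc4s: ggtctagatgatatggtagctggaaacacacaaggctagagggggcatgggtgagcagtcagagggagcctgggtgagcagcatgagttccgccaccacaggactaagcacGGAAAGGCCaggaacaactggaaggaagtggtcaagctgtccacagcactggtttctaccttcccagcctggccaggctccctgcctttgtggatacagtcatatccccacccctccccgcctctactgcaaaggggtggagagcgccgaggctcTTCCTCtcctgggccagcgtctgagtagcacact
Ptgs1: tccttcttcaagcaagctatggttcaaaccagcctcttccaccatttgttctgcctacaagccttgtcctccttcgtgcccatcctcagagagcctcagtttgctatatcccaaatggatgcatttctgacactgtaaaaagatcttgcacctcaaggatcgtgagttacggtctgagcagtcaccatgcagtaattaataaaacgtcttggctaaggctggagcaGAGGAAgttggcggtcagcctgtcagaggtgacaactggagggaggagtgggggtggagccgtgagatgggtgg
Ptgs2: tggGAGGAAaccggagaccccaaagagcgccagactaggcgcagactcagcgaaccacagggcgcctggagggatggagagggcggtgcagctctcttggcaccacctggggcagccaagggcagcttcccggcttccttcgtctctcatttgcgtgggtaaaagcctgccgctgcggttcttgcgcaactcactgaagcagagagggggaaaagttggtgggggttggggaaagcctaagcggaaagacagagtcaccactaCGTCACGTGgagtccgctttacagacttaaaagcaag
All 4 windows held the PU.1 core, as did those of Ptges, Alox5 and Lta4h, 7 of the 9 members with a window in all; it occurs in 28.3% of the 32851 windows of all genes. Counted from the annotated start, it lay at -230 to -225 in Hpgd (minus strand), 17 to 22 in Ltc4s (minus strand), -24 to -19 in Ptgs1 and -247 to -242 in Ptgs2. The Hpgd window also held TATAAA (13.6% of windows) and the Ltc4s window a GGNNTTTCC match on the minus strand (5.82% of windows). TATAAA lay at 5 to 10 in Hpgd, after the RefSeq start. The gene position given for Hpgd below begins at 56294585, further on in this window than the RefSeq start. In the Ptgs2 window CACGTG (7.15% of windows) overlapped a TGACG match on the minus strand (20.8% of windows) by 2 bases. A match describes letters in this window and is not a binding site.

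Release of arachidonic acid is represented by Pla2g4a, the cytosolic phospholipase A2 (chromosome 1, 149829618 to 149961290, minus strand, GRCm38). It read 105, 99.1 and 129.7 CPM in the 3 libraries labelled DKO, 103, 91.0 and 102 in Cbl-/-, 108, 104 and 102 in those labelled Cbl-b-/- and 113, 111 and 123 in WT. The third DKO library was the highest of all 12 and its partners lay below every WT library. Pla2g4a was not called in any comparison: the log2 fold change was -0.06 in DKO (95% interval -0.23 to 0.12), -0.23 in Cbl-/- (-0.41 to -0.05, edgeR adjusted p = 0.1) and -0.15 in Cbl-b-/- (-0.32 to 0.03). Without the third DKO library the DKO value was -0.18 (edgeR adjusted p = 0.018). Without the second it was 0.02 (edgeR adjusted p = 0.85). Pla2g4a was then called higher in DKO than in Cbl-/- (0.25, edgeR adjusted p = 0.029), and its departure from additivity was called (0.40, edgeR adjusted p = 0.021). Pla2g4a and Ptgs2 lie next to each other on chromosome 1, 138740 bases apart on opposite strands with no protein-coding gene annotated between them.

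Between DKO and either single-knockout label the 2 cyclooxygenases were called in opposite directions, Ptgs1 lower and Ptgs2 higher in DKO. Ptgs1 (chromosome 2, 36230426 to 36252272, plus strand), the constitutive form, read 73.6, 72.0 and 71.1 CPM in the libraries labelled DKO, 103, 112 and 106 in Cbl-/-, 87.6, 96.1 and 92.4 in those labelled Cbl-b-/- and 78.6, 86.2 and 69.7 in WT. The 3 Cbl-/- libraries were the highest of the 12, the libraries labelled Cbl-b-/- came next, and DKO lay within the WT range. Ptgs1 was called higher in Cbl-/- than in WT (log2 fold change 0.45, SE 0.07, edgeR adjusted p = 3.4e-04) and lower in DKO than in Cbl-/- (log2 fold change -0.56, SE 0.07, edgeR adjusted p = 1.4e-05) and in Cbl-b-/- (log2 fold change -0.35, edgeR adjusted p = 9.7e-04). It was not called in DKO against WT (-0.12, edgeR adjusted p = 0.22, and -0.19 with edgeR adjusted p = 0.04 without the third WT library). It was also not called in Cbl-b-/- against WT, although the 2 labels did not overlap (0.23, unadjusted p = 0.0037, edgeR adjusted p = 0.26). A gene model on the opposite strand, Gm43621, overlaps Ptgs1 exons, and the use of strand in counting is not known here.

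Ptgs2 (chromosome 1, 150100031 to 150108227, plus strand), the inducible cyclooxygenase, read 15.6, 12.9 and 17.9 CPM in the libraries labelled DKO, 8.23, 6.94 and 7.01 in Cbl-/-, 10.6, 9.74 and 9.97 in those labelled Cbl-b-/- and 10.7, 8.06 and 15.2 in WT. All 3 DKO libraries lay above every Cbl-/- and Cbl-b-/- library, while WT spread widely, and the third WT library reached into the DKO range. Ptgs2 was called higher in DKO than in Cbl-/- (log2 fold change 1.07, SE 0.18, edgeR adjusted p = 3.5e-04; 0.95 with edgeR adjusted p = 0.0032 without the third DKO library) and in Cbl-b-/- (log2 fold change 0.62, SE 0.18, edgeR adjusted p = 0.013; 0.50 with edgeR adjusted p = 0.071 without the third DKO library). The call against WT was at the threshold (log2 fold change 0.47, SE 0.17, edgeR adjusted p = 0.045, 95% interval 0.10 to 0.84). Left out 1 at a time, the first WT library gave 0.43 (edgeR adjusted p = 0.13), the second WT library 0.28 (0.21), the third WT library 0.73 (0.0016), the first DKO library 0.47 (0.086) and the third DKO library 0.36 (0.18). Against WT, Ptgs2 in Cbl-/- had a log2 fold change of -0.60 ± 0.18 (SE) with an edgeR adjusted p of 0.051, and without the second WT library -0.79 (edgeR adjusted p = 0.0056). Without the third WT library it was -0.34 (edgeR adjusted p = 0.23).

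Whether the DKO label departed from the sum of the 2 single labels was tested on the log2 scale, as the DKO change against WT less the 2 single-label changes against WT. The departure was called for 3 of the 10 genes, where 15.7% of all tested genes were called, with 1 above the sum (8.39% of all genes) and 2 below it (7.28%). For Ptgs1 it was -0.80 ± 0.10 (SE, edgeR adjusted p = 3.6e-05): the Cbl-/- label went with 0.45 against WT, and DKO with -0.35 against Cbl-b-/-. For Ptgs2 it was 1.22 ± 0.25 (edgeR adjusted p = 0.0038), with -0.60 in Cbl-/- against WT and 0.62 in DKO against Cbl-b-/-. Of these 4 changes the Ptgs2 value in Cbl-/- against WT did not pass the threshold. Without the third DKO library the departure was -0.78 with edgeR adjusted p = 7.6e-06 for Ptgs1 and 1.10 with edgeR adjusted p = 0.013 for Ptgs2. The third, Ltc4s, had -0.50 ± 0.16 (edgeR adjusted p = 0.036), a call lost when any of 10 of the 12 libraries was left out (-0.53 to -0.42, edgeR adjusted p = 0.057 to 0.089), the exceptions being the second Cbl-b-/- and the second DKO library. For Hpgd the sum of the single labels was -2.19 and DKO -2.43, a departure of -0.24 (edgeR adjusted p = 0.36) that became -0.43 with edgeR adjusted p = 0.0088 without the third DKO library. For Alox5 the sum and the DKO value were both 0.50, with a 95% interval of -0.23 to 0.23 around their difference. Under total-count scaling the median departure of all genes shifted to -0.11 from 0.00.

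**Figure D2:**
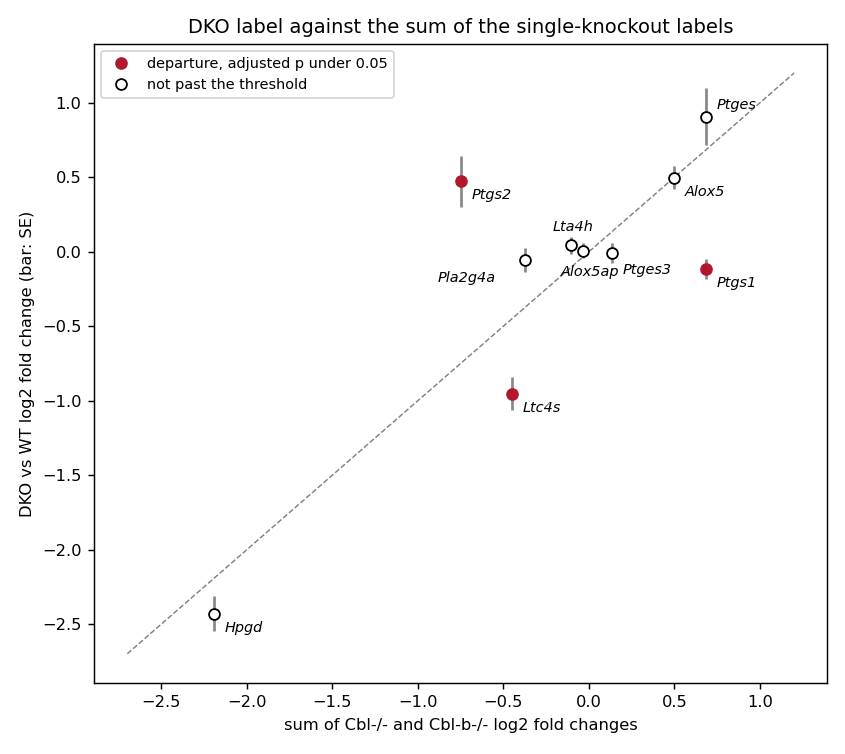
Log2 fold change of the libraries labelled DKO against WT (vertical, bar: SE) plotted against the sum of the Cbl-/- and Cbl-b-/- log2 fold changes (horizontal) for the 10 genes; the dashed line marks equality. Ptgs1, Ptgs2 and Ltc4s (red) have a departure with an adjusted p under 0.05, and Alox5 lies on the line.

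Prostaglandin E synthesis was followed by Ptges and Ptges3. Ptges (chromosome 2, 30889471 to 30929863, minus strand), the inducible membrane-bound synthase, read 5.85, 5.18 and 4.15 CPM in the libraries labelled DKO, 3.81, 4.26 and 3.39 in Cbl-/-, 2.61, 3.92 and 2.62 in those labelled Cbl-b-/- and 2.31, 2.87 and 2.93 in WT. The DKO libraries lay above all WT and Cbl-b-/- libraries and overlapped Cbl-/-. Ptges was called higher in DKO than in WT (log2 fold change 0.91, SE 0.19, edgeR adjusted p = 0.0016; 1.04 with edgeR adjusted p = 3.7e-04 without the third DKO library) and than in Cbl-b-/- (log2 fold change 0.72, edgeR adjusted p = 0.0086). Against Cbl-/- it was not called (0.41, edgeR adjusted p = 0.12) unless the third DKO library was left out (0.54, edgeR adjusted p = 0.042). In Cbl-/- against WT the log2 fold change of 0.50 did not pass (edgeR adjusted p = 0.14), although all 3 Cbl-/- libraries lay above WT. Its promoter window, chr2:30903248-30903547, held 1 match, the PU.1 core.

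Ptges3 (chromosome 10, 128058954 to 128077272, plus strand), the cytosolic synthase that is also the Hsp90 co-chaperone p23, averaged 232 ± 26.8 CPM in DKO, 253 ± 7.72 in Cbl-/-, 236 ± 3.69 in Cbl-b-/- and 233 ± 6.78 in WT (SD, n = 3 each). The DKO libraries read 226, 209 and 261, a range that held every WT and Cbl-b-/- library. Ptges3 was not called in any comparison, and its 95% interval in DKO against WT was -0.15 to 0.14 on the log2 scale. Without the third DKO library it was called lower than in Cbl-/- (-0.22, edgeR adjusted p = 8.2e-04), and its departure from additivity, -0.14 (edgeR adjusted p = 0.35) with all libraries, became -0.24 with edgeR adjusted p = 0.0078. Under total-count scaling, with all libraries, Ptges3 was also called lower in DKO than in Cbl-/- (-0.22, edgeR adjusted p = 0.017). A processed pseudogene, Ptges3-ps, shares its sequence, so its counts are less certain than the rest.

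Hpgd (chromosome 8, 56294585 to 56321043, plus strand) showed the widest change of the 10 genes. The enzyme oxidises prostaglandins as the first step of their inactivation. It read 9.31, 11.6 and 14.7 CPM in the libraries labelled DKO, 19.2, 19.0 and 17.4 in Cbl-/-, 50.9, 44.8 and 50.9 in those labelled Cbl-b-/- and 64.8, 62.8 and 65.4 in WT. The 4 labels did not overlap at any point, in the order DKO, Cbl-/-, Cbl-b-/- and WT from low to high. Hpgd was 5.39-fold lower in DKO than in WT (log2 fold change -2.43, SE 0.12, edgeR adjusted p = 1.7e-10) and 3.48-fold lower in Cbl-/- (log2 fold change -1.80, SE 0.11, edgeR adjusted p = 1.3e-08). It was lower in DKO than in Cbl-/- (log2 fold change -0.63, SE 0.12, edgeR adjusted p = 7.4e-04) and than in Cbl-b-/- (log2 fold change -2.03, SE 0.12, edgeR adjusted p = 2.1e-09), and higher in Cbl-b-/- than in Cbl-/- (log2 fold change 1.40, SE 0.11, edgeR adjusted p = 4e-07). These calls held in each alternative run, and without the third DKO library, the highest DKO library for Hpgd, the change against WT was -2.63 with edgeR adjusted p = 1.2e-14. In Cbl-b-/- against WT the log2 fold change was -0.40 ± 0.11 (SE, unadjusted p = 0.0018, edgeR adjusted p = 0.16), which passed when only these 2 labels were fitted (edgeR adjusted p = 0.0062).

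**Figure D3:**
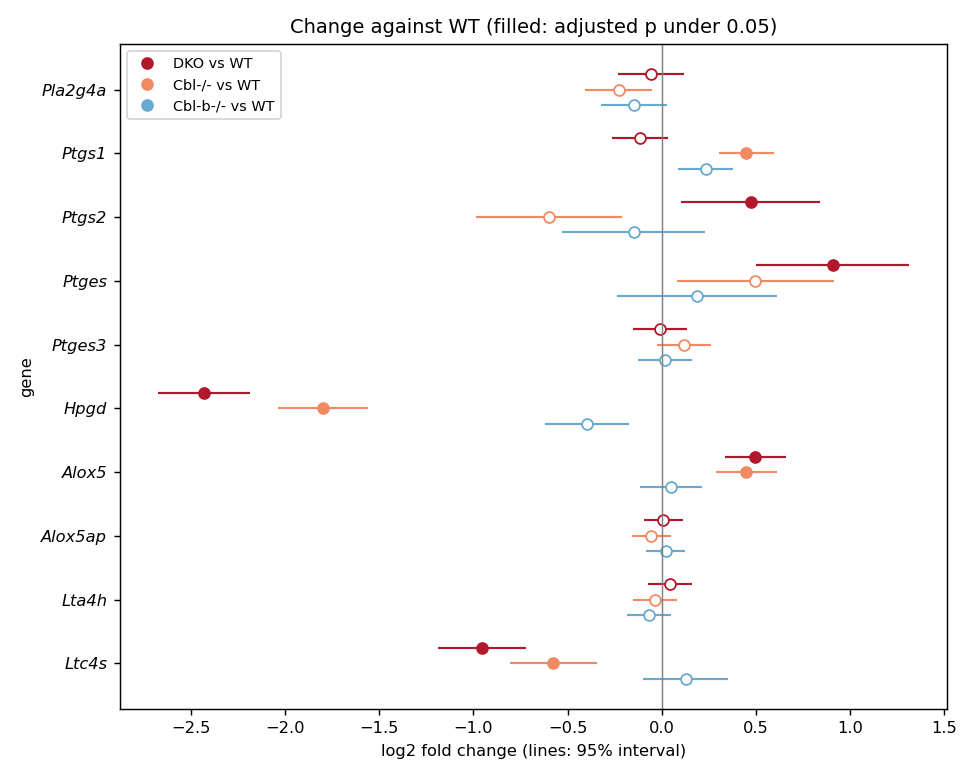
Log2 fold change against WT of the 10 genes for DKO, Cbl-/- and Cbl-b-/- (points, with 95% intervals as lines); filled points have an edgeR adjusted p under 0.05. Hpgd and Ltc4s lie left of 0 in DKO and Cbl-/-, and Alox5 lies right of 0 in both.

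Leukotriene synthesis starts with Alox5, the lipoxygenase, and Alox5ap, the membrane protein that presents arachidonic acid to it. Alox5 (chromosome 6, 116410077 to 116461178, minus strand) read 50.7, 57.4 and 49.6 CPM in the libraries labelled DKO, 48.2, 50.03 and 54.1 in Cbl-/-, 36.8, 39.98 and 39.0 in those labelled Cbl-b-/- and 39.0, 38.8 and 33.8 in WT. DKO and Cbl-/- overlapped each other and lay wholly above Cbl-b-/- and WT, which also overlapped. Alox5 was called higher in DKO than in WT (log2 fold change 0.50, SE 0.08, edgeR adjusted p = 8.6e-05; 0.54 with edgeR adjusted p = 7.2e-06 without the third DKO library) and in Cbl-/- than in WT (log2 fold change 0.45, SE 0.08, edgeR adjusted p = 9e-04). Between DKO and Cbl-/- the log2 fold change was 0.05 (95% interval -0.11 to 0.21), and between Cbl-b-/- and WT 0.05 (-0.11 to 0.21).

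Alox5ap (chromosome 5, 149264767 to 149288153, plus strand) averaged 551 ± 20.2 CPM in DKO, 527 ± 9.43 in Cbl-/-, 555 ± 15.7 in Cbl-b-/- and 548 ± 16.0 in WT (SD, n = 3 each). Its 12 libraries lay between 517 and 574 CPM. No comparison called it, and the 95% interval was -0.10 to 0.11 in DKO against WT and -0.16 to 0.05 in Cbl-/- against WT. An antisense gene, Gm19719, overlaps its exons and had 0 to 5 reads per library, against 11754 or more for Alox5ap.

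Lta4h and Ltc4s are the branch enzymes that use the product of Alox5. Lta4h (chromosome 10, 93453411 to 93484875, plus strand), the hydrolase that forms leukotriene B4, averaged 67.2 ± 2.97 CPM in DKO, 63.7 ± 2.52 in Cbl-/-, 62.1 ± 0.987 in Cbl-b-/- and 65.2 ± 1.01 in WT. It was not called in any comparison, with a 95% interval of -0.07 to 0.16 in DKO against WT. Ltc4s (chromosome 11, 50236461 to 50238616, minus strand), the synthase that joins glutathione to form leukotriene C4, read 5.52, 6.81 and 5.14 CPM in the libraries labelled DKO, 7.61, 7.31 and 7.65 in Cbl-/-, 12.3, 11.6 and 13 in those labelled Cbl-b-/- and 11.6, 11.3 and 10.7 in WT. DKO and Cbl-/- lay below every Cbl-b-/- and WT library, and DKO below Cbl-/-.

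Ltc4s was 1.94-fold lower in DKO than in WT (log2 fold change -0.95, SE 0.11, edgeR adjusted p = 4.6e-06; -0.87 with edgeR adjusted p = 5.7e-06 without the third DKO library) and 1.49-fold lower in Cbl-/- (log2 fold change -0.58, SE 0.11, edgeR adjusted p = 0.0022). It was lower in DKO than in Cbl-b-/- (log2 fold change -1.08, SE 0.11, edgeR adjusted p = 1.6e-06) and higher in Cbl-b-/- than in Cbl-/- (log2 fold change 0.70, edgeR adjusted p = 5.7e-04). The call for DKO against Cbl-/- (log2 fold change -0.38, SE 0.11, edgeR adjusted p = 0.019) was lost without the first (-0.37, edgeR adjusted p = 0.058) or the third Cbl-/- library (-0.37, 0.062) and without the first (-0.34, 0.061) or the third DKO library (-0.29, 0.064). The antisense gene Gm26542, which overlaps Ltc4s exons, had 0 to 9 reads per library against 177 to 489 for Ltc4s. Mast cells and basophils are known for high Ltc4s, and the part of such cells in the Ltc4s values was not tested.

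Between the labels other than WT, 4 of the 10 genes were called in DKO against Cbl-/-, where 29.6% of all tested genes were called, with 1 higher (16% of all genes) and 3 lower (13.6%). In DKO against Cbl-b-/- it was 6 of 10, where 33.2% of all genes were called, with 3 higher (17.7% of all genes) and 3 lower (15.6%). In Cbl-b-/- against Cbl-/- 3 of 10 were called, where 7.37% of all genes were (3.25% higher and 4.12% lower), with Hpgd and Ltc4s higher and Alox5 lower (log2 fold change -0.40, edgeR adjusted p = 0.0036). With TMM scaling and all 12 libraries in 1 fit, Pla2g4a, Ptges3, Alox5ap and Lta4h were not called by edgeR in any of the 6 pairs of labels. Hpgd and Ltc4s were called in 5 of the 6.

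Per length of exon, the levels averaged over all 12 libraries ran in this order, in CPM per kilobase: Alox5ap 384, Ptges3 108, Ptgs1 22.5, Hpgd 21.3, Pla2g4a 16.8, Alox5 10.9, Lta4h 10.6, Ltc4s 9.09, Ptgs2 2.42 and Ptges 0.931. This order pools the labels, and the place of Hpgd differed between them: it stood at 7.06 CPM per kilobase in DKO, below Ptgs1, Pla2g4a, Alox5 and Lta4h, at 11.01 in Cbl-/- and 29.0 in Cbl-b-/-, and at 38.2 in WT, above Ptgs1 at 20.1. The helper Alox5ap stood far above its lipoxygenase Alox5, and Ptgs1 above Ptgs2 in every library. The ratio of Ptgs1 to Ptgs2 per kilobase was 4.68 to 6.56 in DKO, 14.8 to 19.0 in Cbl-/-, 9.78 to 11.6 in those labelled Cbl-b-/- and 5.41 to 12.6 in WT. Cbl-/- lay above all other labels on this ratio, and DKO overlapped WT. The ratio of Ptgs2, on the synthesis side, to Hpgd, on the breakdown side, was 0.411 to 0.617 in DKO, 0.134 to 0.158 in Cbl-/-, 0.0719 to 0.0799 in those labelled Cbl-b-/- and 0.0471 to 0.0854 in WT. The DKO libraries were highest, Cbl-/- next, and Cbl-b-/- overlapped WT. The ratio of Lta4h to Ltc4s was 1.56 to 2.25 in DKO, 1.35 to 1.51 in Cbl-/-, 0.782 to 0.904 in those labelled Cbl-b-/- and 0.934 to 0.998 in WT, so that DKO was again highest and Cbl-/- next. The ratio of Alox5ap to Alox5 was 28.9 to 31.3 in DKO and 27.6 to 31.7 in Cbl-/-, against 40.9 to 45.4 in WT, with the libraries labelled Cbl-b-/- at 40.03 to 43.6.

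**Figure D4:**
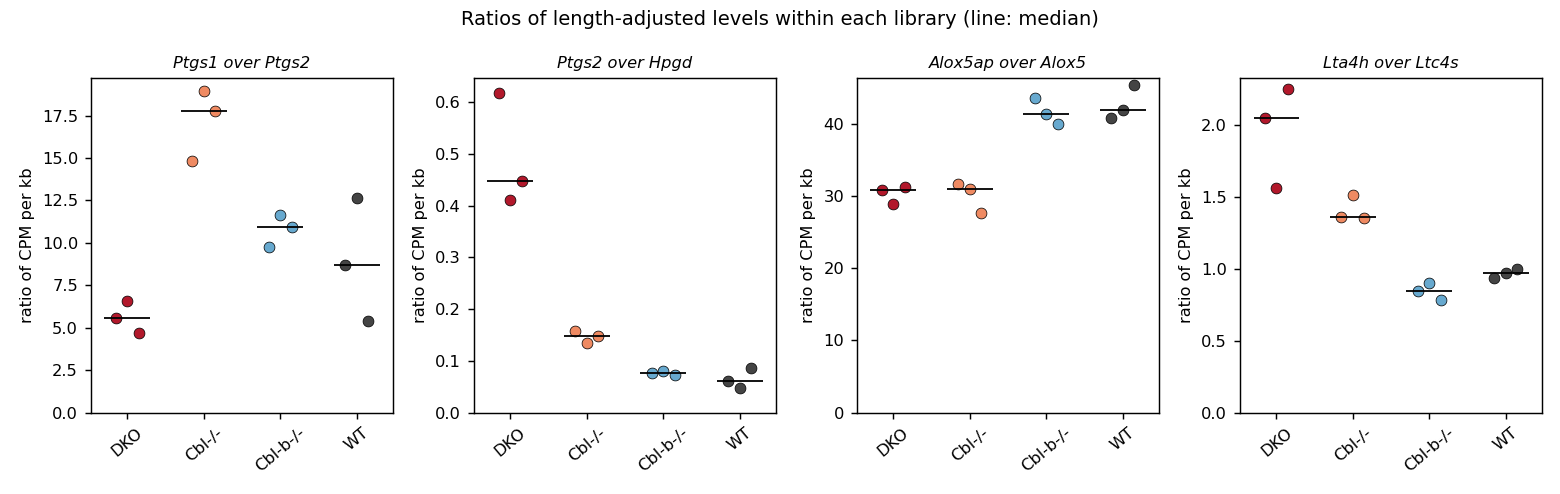
Ratios of levels per exon length within each library (points) and their medians (lines) for DKO, Cbl-/-, Cbl-b-/- and WT. Ptgs2 over Hpgd is 0.411 to 0.617 in DKO and 0.0471 to 0.0854 in WT, and Lta4h over Ltc4s is 1.56 to 2.25 in DKO and 0.934 to 0.998 in WT.

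Across the 12 libraries, which fall into 4 labels, Hpgd and Ltc4s had a Pearson correlation of 0.93 on log2 CPM, Hpgd and Alox5 -0.93, Hpgd and Ptges -0.89, and Ptgs1 and Ptgs2 -0.91. These describe how the labels are ordered for each gene together with the spread within labels, and the 2 were not separated. Within WT, Cbl-/- and Cbl-b-/-, though not within DKO, the library with the most Ptgs1 had the least Ptgs2. Patterns were compared with 8740 other genes averaging 3 log2 CPM or more, leaving out genes with no symbol or with a clone or model name. Among these, the patterns most like Hpgd were those of Rdh10 (r = 0.98), Rap2a (0.98) and Cd300ld3 (0.97), and those most like Ltc4s were Sort1 (0.98), Tef (0.98) and Rftn1 (0.97). For Ptgs2 they were Ppp2r1b (0.93), Abhd5 (0.91) and Anxa5 (0.91), and for Ptges Gsdmd (0.94), Ifi27l2a (0.94) and Pirb (0.93).

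The pathway around the 10 genes was followed with 56 other genes in 8 lists, of which 46 were in the table and 41 were tested. In DKO against WT 9 of the 41 were called higher, where 19.1% of all genes were, and 6 lower, where 16.3% were, so the 15 called stood near the share of 35.4% over all genes; the median log2 fold change was 0.08. In Cbl-/- against WT 4 were called higher and 2 lower, where 5.68% and 4.19% of all genes were, with a median of 0.02. None of the 41 was called by edgeR in Cbl-b-/- against WT, where 4 had an unadjusted p under 0.05 and DESeq2 called 0. The genes named below are those with the smallest adjusted p in each list, apart from Ptgr1, Ptgr2 and Mgst2, which were chosen after their values were seen. Tbxas1, Dpep2 and Pla2g7 are named near the end only because their departure from additivity passed the threshold.

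Upstream of the 10 genes, Acsl4, which loads arachidonic acid onto coenzyme A, averaged 193 ± 39.1 CPM in DKO against 144 ± 5.05 in WT (log2 fold change 0.42, SE 0.11, edgeR adjusted p = 0.0066; 0.25 with edgeR adjusted p = 0.013 without the third DKO library). Fads1, a desaturase of arachidonic acid synthesis, averaged 151 ± 3.94 against 174 ± 5.78 CPM (log2 fold change -0.21, SE 0.05, edgeR adjusted p = 0.0051). Of 8 tested phospholipases 1 was called, Pla2g4b, at under 1 CPM in every library (log2 fold change -1.32, SE 0.48, edgeR adjusted p = 0.044). That call was lost without the second (-0.94, edgeR adjusted p = 0.23) or the third WT library (-1.40, 0.067) and without the first (-1.36, 0.087), the second (-1.18, 0.12) or the third DKO library (-1.45, 0.071). It was also lost with DESeq2 (adjusted p = 0.051), limma voom (0.056), the replicate block (0.067) and no filter (0.059). Pla2g4b had 8, 5 and 10 reads in the libraries labelled DKO against 15, 30 and 13 in WT. It passed the filter through the WT and Cbl-b-/- libraries, so its call as lower in DKO was partly set by the filter. Beside Ptges, 1 of 6 other prostanoid synthases was called in DKO: Hpgds, the prostaglandin D synthase of haematopoietic cells, at 172 ± 14.8 CPM against 222 ± 7.06 in WT (log2 fold change -0.37, SE 0.06, edgeR adjusted p = 1.9e-04). The 3 tested genes of prostaglandin transport and reduction were not called in DKO against WT. In Cbl-/- 2 of them were lower, Ptgr1 at 45.6 ± 0.877 CPM against 68.1 ± 2.28 in WT (log2 fold change -0.58, SE 0.05, edgeR adjusted p = 1.1e-06) and Ptgr2 (log2 fold change -0.26, SE 0.06, edgeR adjusted p = 0.0064), both reductases of prostaglandin metabolites.

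Among lipoxygenases and epoxide enzymes, Cyp2s1, a cytochrome P450, read 18.9, 21.1 and 19.2 CPM in the libraries labelled DKO, 3.61, 4.50 and 3.53 in Cbl-/- and 2.17, 1.69 and 2.72 in WT. The 3 labels did not overlap, and Cyp2s1 was called higher in DKO (log2 fold change 3.19, SE 0.15, edgeR adjusted p = 1.7e-10) and in Cbl-/- (log2 fold change 0.83, SE 0.16, edgeR adjusted p = 0.0027). Ephx1, an epoxide hydrolase, averaged 18.8 ± 1.34 in DKO against 11.4 ± 0.474 CPM in WT (log2 fold change 0.72, SE 0.10, edgeR adjusted p = 3.6e-05). Of 6 tested leukotriene processing genes, Mgst3, a microsomal glutathione transferase, was higher in DKO (log2 fold change 0.35, SE 0.10, edgeR adjusted p = 0.011), a call lost without the first (0.27, edgeR adjusted p = 0.067) or the second WT library (0.31, 0.05). Abcc1, which exports leukotriene C4, averaged 279 ± 19.9 CPM in DKO against 335 ± 7.42 in WT (log2 fold change -0.27, SE 0.05, edgeR adjusted p = 0.0012). Ggt5, which trims leukotriene C4 to D4, was lower at 0.482 ± 0.169 against 1.504 ± 0.223 CPM (log2 fold change -1.66, SE 0.33, edgeR adjusted p = 9.2e-04). In Cbl-/- the called gene of this list was Mgst2, a microsomal transferase related to Ltc4s, at 4.83 ± 0.253 CPM against 1.99 ± 0.594 in WT (log2 fold change 1.30, SE 0.26, edgeR adjusted p = 0.0032).

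Of 5 tested prostanoid receptors 2 were higher and 1 lower in DKO, where 19.1% of all genes were called higher and 16.3% lower. Ptger4, a prostaglandin E receptor, read 62.5, 65.8 and 68.0 CPM in the libraries labelled DKO, 47.8, 45.4 and 45.5 in Cbl-/- and 36.5, 28.9 and 43.3 in WT, with DKO highest, Cbl-/- next and no overlap. It was higher in DKO (log2 fold change 0.86, SE 0.10, edgeR adjusted p = 6.4e-06) and in Cbl-/- (log2 fold change 0.36, SE 0.10, edgeR adjusted p = 0.038). The Cbl-/- call was lost without the first (0.36, edgeR adjusted p = 0.11) or the second WT library (0.22, 0.17) and without the first, the second or the third Cbl-/- library (0.33 with 0.13, 0.37 with 0.091, and 0.37 with 0.094). Ptgir, the prostacyclin receptor, averaged 34.9 ± 2.21 CPM in DKO and 30.5 ± 0.963 in Cbl-/-, against 23.5 ± 1.77 in WT, and was called in both (log2 fold change 0.57 in DKO, edgeR adjusted p = 2.5e-05, and 0.37 in Cbl-/-, edgeR adjusted p = 0.0047). Ptger1, another prostaglandin E receptor, was lower in DKO (log2 fold change -0.26, SE 0.08, edgeR adjusted p = 0.027), a call lost without the first (-0.22, edgeR adjusted p = 0.11) or the second WT library (-0.26, 0.063) or the third DKO library (-0.15, 0.061).

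All 3 tested leukotriene receptors were called higher in DKO than in WT, where 19.1% of all genes were, and none in Cbl-/- against WT, where 5.68% were. Cysltr1, a receptor for cysteinyl leukotrienes, read 35.5, 34.6 and 54.6 CPM in the libraries labelled DKO against 29.1, 31.3 and 29.6 in WT (log2 fold change 0.47, SE 0.13, edgeR adjusted p = 0.011). The third DKO library was far above the other two, and without it the value was 0.23 with edgeR adjusted p = 0.013. Ltb4r1, the leukotriene B4 receptor, averaged 1.96 ± 0.291 CPM in DKO against 0.996 ± 0.152 in WT (log2 fold change 0.98, SE 0.30, edgeR adjusted p = 0.018), a call lost without the second WT (0.85, edgeR adjusted p = 0.082) or the first DKO library (0.85, 0.071). Cysltr2 stayed under 1 CPM in every library (log2 fold change 1.93, SE 0.50, edgeR adjusted p = 0.0064). It had 17, 21 and 33 reads in the libraries labelled DKO against 7, 4 and 7 in WT. It passed the filter through the DKO libraries, so its call as higher there was partly set by the filter. These receptors are also found on other myeloid cells, whose markers were higher in the libraries labelled DKO, and that part was not tested.

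**Figure D5:**
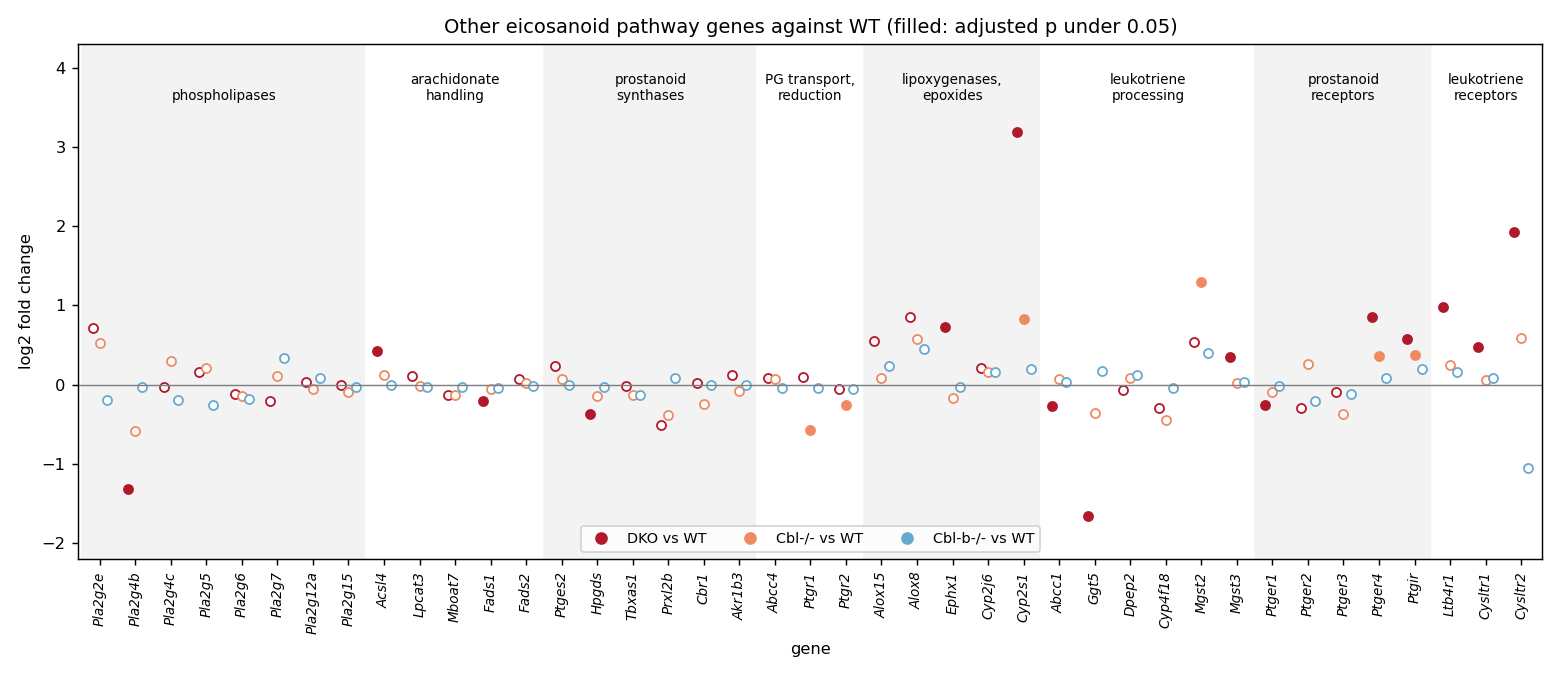
Log2 fold change against WT of the 41 tested pathway genes other than the 10, for DKO, Cbl-/- and Cbl-b-/-; filled points have an edgeR adjusted p under 0.05. Cyp2s1 reaches 3.19 in DKO, and Ltb4r1, Cysltr1 and Cysltr2 are filled in DKO.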

How the data were processed

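RNA was measured in 12 libraries of bone-marrow-derived macrophages, 3 per genotype label. Per the labels' protocols, a TruSeq kit for stranded mRNA was used. The authors deposited whole-number read counts per gene with no normalization; the genome build was GRCm38.p5 per the submitters' processing notes, and for the aligner, the counter and strand handling: not given in the sources used here. Their table held 15555 genes, each with at least 1 count in the first WT library, so a gene with no reads there was not analysed. Library totals ranged from 21048103 to 43946503 counts.

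Symbols, positions and exon lengths came from GENCODE M21 (GRCm38), with 1 listed symbol, Prxl2b, matched through a RefSeq synonym, and promoter windows from RefSeq (GRCm38.p6). All 12 libraries were fitted with edgeR 4.0.16 in R 4.3.3 (filterByExpr, TMM, robust quasi-likelihood, 1 mean per genotype), with Benjamini-Hochberg adjustment over 12671 tested genes and a threshold of 0.05. CPM per kilobase divides CPM by the union of exon lengths. Alternatives changed the scaling (DESeq2 size factors, total counts), the filter (none, or 5 CPM in 3 libraries), the test (DESeq2 1.42.0, limma 3.58.1 voom) or the model (a block for replicate number, only the 2 genotypes at hand), or dropped 1 library.

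The 10 genes, the pathway and marker lists and the tests were chosen with earlier results of these data known. From each pathway list up to 3 genes past the threshold in DKO against WT with the smallest adjusted p were named, and up to 2 receptors per receptor list past it in a single knockout against WT. The 3 compared genes with the most similar pattern are given for the 4 members with the widest range. The fit was also run on counts simulated from its own estimates of spread. Such a run checks the code, not how well the model suits these libraries. Chi-square tests between replicates, over genes with 20 or more summed counts, gave 3.93 or more per degree of freedom, above sampling noise for each pair.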

Additional observations from a re-analysis of the deposited data

Results flagged for a closer look

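For 3 of the 10 genes and 10 of the 41 other tested pathway genes the difference that goes with the Cbl-/- label depended on the Cbl-b label, by the test of departure from additivity on the log2 scale, which 15.7% of all tested genes passed. The difference between the DKO-against-Cbl-b-/- and the Cbl-/--against-WT log2 fold changes was -0.80 for Ptgs1 (edgeR adjusted p = 3.6e-05), 1.22 for Ptgs2 (0.0038) and -0.50 for Ltc4s (0.036). In Ptgs1 the log2 fold change was -0.35 in DKO against Cbl-b-/- and 0.45 in Cbl-/- against WT, and in Ptgs2 it was 0.62 and -0.60.

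Among the other pathway genes, the departure was 2.16 for Cyp2s1 (edgeR adjusted p = 5.8e-06), 0.72 for Ptgr1 (5.3e-06), 0.93 for Ephx1 (0.00042) and -0.37 for Abcc1 (0.0031), and these held in each alternative run. Cyp2s1 differed by 2.99 in DKO against Cbl-b-/- and by 0.83 in Cbl-/- against WT, and Ptgr1 by 0.14 and -0.58. The departure was -1.48 for Ggt5 (0.035), -1.16 for Mgst2 (0.04), 0.26 for Ptgr2 (0.038), 0.25 for Tbxas1 (0.049), -0.27 for Dpep2 (0.023) and -0.65 for Pla2g7 (0.017). Those calls were each lost with certain libraries left out 1 at a time. Ggt5 lost its call without any of 8 libraries, the exceptions being the first Cbl-/-, the first Cbl-b-/- and the first and the second DKO library (-1.56 to -1.19, edgeR adjusted p = 0.054 to 0.097). With the replicate block Ggt5 (edgeR adjusted p = 0.057), Mgst2 (0.063), Ptgr2 (0.06) and Tbxas1 (0.069) lost theirs. Of the 12 libraries left out 1 at a time, Mgst2 kept its call only without the third of WT, Cbl-b-/- or DKO, Ptgr2 only without the third WT or the second or the third DKO library, and Tbxas1 only without the third DKO library. Dpep2 lost it without the first or the second WT, the second or the third Cbl-/- or the first Cbl-b-/- library (edgeR adjusted p = 0.052 to 0.072), and Pla2g7 without the third WT, the second Cbl-/- or the second Cbl-b-/- library (0.051 to 0.058). Under total-count scaling Ptgr2 was at 0.15 (edgeR adjusted p = 0.25) and Tbxas1 at 0.14 (0.3). With no filter both also lost their calls (edgeR adjusted p = 0.063 for Ptgr2 and 0.07 for Tbxas1). Tbxas1 further lost its call with DESeq2 size factors (edgeR adjusted p = 0.051), the 5 CPM filter (0.05) and limma voom (limma adjusted p = 0.05). The labels DKO and Cbl-b-/- are not borne out by the Cblb counts. The third DKO library stands apart from its partners on chi-square, and the third Cbl-b-/- library does in the principal component analysis.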

How the results depend on the processing

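Over 1023 recomputed values of the 10 genes, 947 kept their direction and their side of the threshold, 24 lost the threshold, 21 gained it and 31 changed sign, none of those 31 being past the threshold. Fitting the compared genotypes alone called 7 of the 10 genes in Cbl-/- against WT in place of 4, adding Pla2g4a, Ptges and Ptges3; 5 in Cbl-b-/- against Cbl-/- in place of 3, adding Ptgs1 and Ptgs2; and 1 in Cbl-b-/- against WT, Hpgd, which DESeq2 also called (1 in place of 0). The cause was not tested. Leaving out each library in turn gave 4 to 6 of the 10 genes in DKO against WT, 4 to 5 in Cbl-/- against WT, 0 in Cbl-b-/- against WT, 3 to 5 in DKO against Cbl-/-, 5 to 6 in DKO against Cbl-b-/-, 3 in Cbl-b-/- against Cbl-/- and 2 to 4 for the departure from additivity.

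Sign changes came near 0. Under total counts the value was -0.062 for Alox5ap and -0.028 for Lta4h in DKO against WT; -0.039 for Alox5, -0.024 for Alox5ap and -0.0100 for Lta4h in DKO against Cbl-/-; -0.0014 for Pla2g4a in DKO against Cbl-b-/-; -0.066 for Alox5ap in the departure from additivity. With no filter it was -0.00021 for Alox5ap in DKO against WT. The other sign changes came with 1 library left out. In DKO against WT the values then ran -0.18 to 0.023 for Pla2g4a, -0.10 to 0.063 for Ptges3 and -0.022 to 0.028 for Alox5ap. In Cbl-b-/- against WT the values then ran -0.35 to 0.11 for Ptgs2, -0.042 to 0.30 for Ptges, -0.0038 to 0.038 for Ptges3, -0.012 to 0.086 for Alox5 and -0.0028 to 0.039 for Alox5ap. In DKO against Cbl-/- the values then ran -0.018 to 0.097 for Alox5. In DKO against Cbl-b-/- the values then ran -0.032 to 0.17 for Pla2g4a, -0.12 to 0.047 for Ptges3 and -0.042 to 0.0091 for Alox5ap. In the departure from additivity the values then ran -0.067 to 0.061 for Alox5.

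Ptgs2 in DKO against WT also lost its call with no filter (0.46, edgeR adjusted p = 0.058), total counts (0.40, 0.076) and the 2 genotypes alone (0.48, 0.11), and in Cbl-/- against WT gained one with DESeq2 (0.015), the 5 CPM filter (0.045) and the replicate block (0.027). That filter removed Ptges, and a fit of the compared genotypes alone cannot give the departure from additivity. Same-numbered libraries did not deviate together (r = -0.05 to 0.05 over 18 pairs). A shared animal or day with a small effect could go unseen on this measure, so whether the numbers pair libraries is not settled. With the replicate number as a block 5 of the 10 genes were called in DKO against WT, 5 in Cbl-/- against WT (Ptgs2 added, -0.58) and 2 for the departure (Ltc4s lost, -0.51, edgeR adjusted p = 0.055). Over all genes, Cbl-/- against WT gave 1251 calls, 2753 in a fit of the 2 genotypes and 733 to 978 with a library left out; Cbl-b-/- against WT gave 62, 146 with DESeq2 and 35 to 75 with a library left out; DKO against Cbl-b-/- gave 4211 and 2760 in a fit of the 2 genotypes; and Cbl-b-/- against Cbl-/- gave 934, 1712 in a fit of the 2 genotypes and 533 to 737 with a library left out. The other pathway genes called in Cbl-/- against WT were 6, and 11 in a fit of the 2 genotypes. Among the 10 genes Ptges had the fewest reads (57 to 210 per library); of the other genes named, Pla2g4b had 5 to 30, Cysltr2 0 to 33 and Ggt5 12 to 67.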
